A study of Rattus norvegicus with 4 samples.

Results

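The comparison described here is that of interferon-γ (IFN-γ) with no treatment in cultured rat astrocytes that had all received a control siRNA. It rests on 2 of the 4 samples of the series, the one labelled with control siRNA alone and the one labelled with control siRNA and IFN-γ, each measured on 1 array. The cells were primary astrocytes of Sprague-Dawley rats, taken at the age of 1 day from the cerebral cortex, prepared by trypsin digestion and held for 2 days in MEM without serum, a step meant by the labels to remove microglia and meningeal cells. The treated culture had IFN-γ for 3 h; its dose is not given in the sources used here, nor is whether the untreated culture had a vehicle. Both cultures carry the control siRNA, so the comparison holds no untransfected cells. The other 2 cultures also had IFN-γ for 3 h, together with a compound labelled GW, 1 with control siRNA and 1 with an siRNA against SHP, and their values are set beside the 2 arrays where they bear on a gene. The labels do not say how many animals each culture came from.

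Astrocytes are the glial cells that take up glutamate and potassium around neurons and take part in the immune response of the brain. IFN-γ, a cytokine made by T cells and natural killer cells, binds a receptor of the chains IFNGR1 and IFNGR2, which carry the kinases JAK1 and JAK2; the signal reaches gamma-activated sites (GAS) in DNA and switches on IRF1, GBP GTPases and the genes of antigen presentation. NF-κB is the pathway of TNF, interleukin-1 and microbial ligands, in which kinases free REL-family dimers from inhibitory IκB proteins, and its targets include chemokines, cytokines, adhesion molecules and the IκB genes themselves.

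In the IFN-γ culture 190 genes stood at least 2-fold above the untreated culture and 34 stood at least 2-fold below, of 11790 genes that passed the filter on low values. The 10 genes at least 8-fold higher were the chemokines Cxcl2 and Ccl20, the cytokines Il6, Tnf and Ifnb1, the chemokine receptor family members Ccrl2 and Cxcr5, and Rtp3, Olr1 and Cd83. IκB genes of the NF-κB pathway were up to 5.45-fold higher (Nfkbid), while antigen presentation genes lay near 0. Levels are log2 values read from the deposited table, whose log base and unit are not stated and were inferred from a range of 1.14 to 13.4. A difference is the IFN-γ value minus the untreated value. With 1 array per group there is no p-value, no standard deviation and no replicate check, so each value describes these 2 cultures, and the number of arrays limits the precision. A gene passed when at least 1 of its 4 values was 5.83, the median of the whole table, or more.

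As a background to every count below, 1.61% of the genes that passed were higher by 2-fold or more and 0.288% lower by 2-fold or more. At 1.5-fold the shares were 3.02% higher and 1.59% lower. Over all 11790 genes 40.1% of the differences lay above 0 and 59.8% below, around a median of -0.04, with quartiles of -0.14 and 0.07 and the middle 95% between -0.48 and 0.67. More genes thus lay below 0 than above, but the wide differences were mostly above: 56 genes were at least 4-fold higher and 0 were at least 4-fold lower. The highest difference corresponded to 21.5-fold and the lowest to 3.23-fold. No threshold separates a group of genes, since the 12 genes just above 2-fold had log2 differences of 1.01 to 1.03 and the 12 just under it 0.96 to 1.00. The 3930 genes with the highest mean level over the 2 arrays compared, above 8.51, held 94 of the 190 higher genes and 5 of the 34 lower ones. Among the 3930 genes with the lowest mean level, under 7.13, the numbers were 42 and 13. That mean includes the IFN-γ value, so a higher value with IFN-γ itself moves a gene up in level. In 28 of the 190 higher genes the untreated value lay under 5.83, and in 6 of the 34 lower genes the IFN-γ value did. For these genes the size of the fold is uncertain, because a value that low may sit at the background of the array. With low values raised to 5.83 the counts were 176 and 31, and the calls lost in a list are named beside it.

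**Figure D1:**
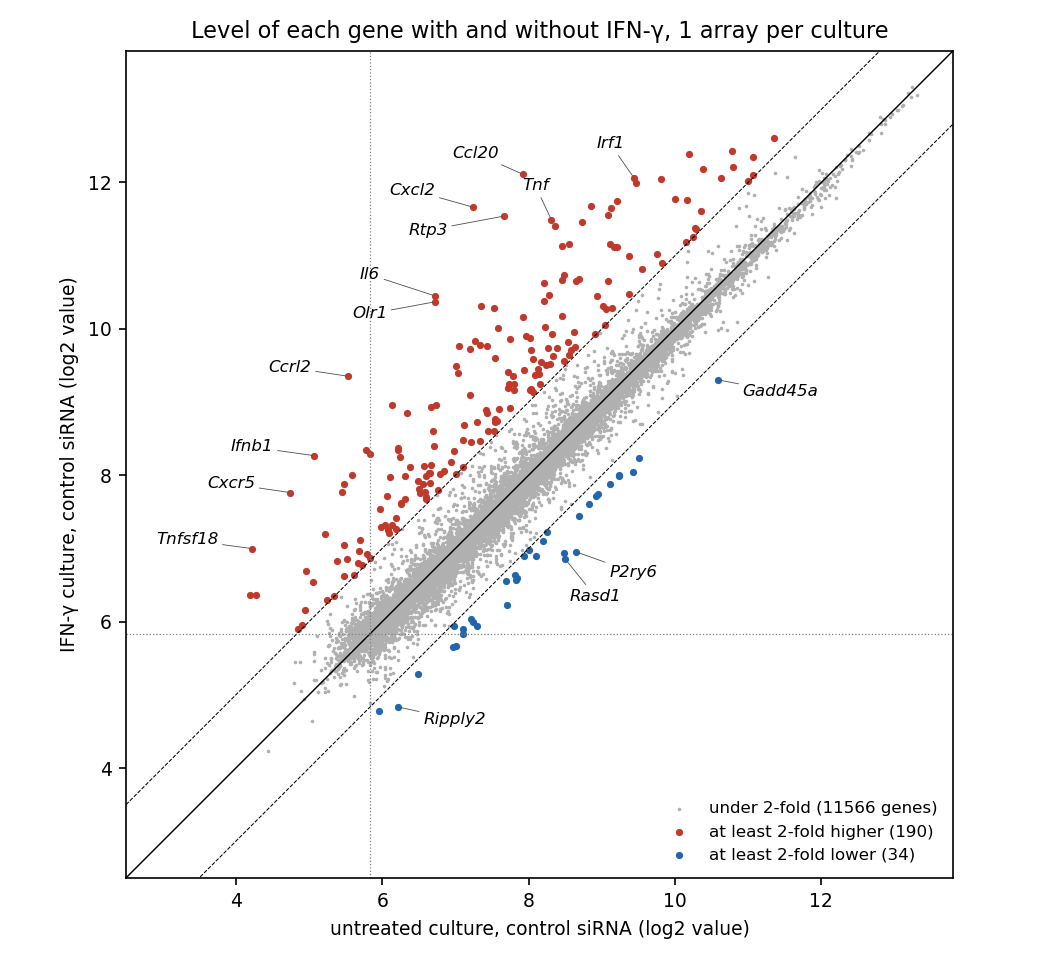
Log2 level of each of the 11790 genes in the untreated culture (horizontal axis) and the IFN-γ culture (vertical axis), 1 point per gene and 1 array per culture; the solid line marks equal levels, the dashed lines 2-fold and the dotted lines the table median of 5.83. The 190 genes higher by 2-fold or more spread up to 21.5-fold above the line, whereas the 34 genes lower by 2-fold or more stay within 3.23-fold of it.

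The labelled cell type was checked against marker genes. Of 14 astrocyte markers 12 were on the table and 11 passed, among them Gfap at 12.03 untreated and 12.06 with IFN-γ, Slc1a3 at 11.23 and 11.38, and Aldoc at 11.45 and 11.39. The mean log2 level of these 11 markers was 10.19 untreated and 10.31 with IFN-γ, with a median difference of 0.11. Microglia and macrophage markers were present as well: 21 of 22 on the table passed, with a mean log2 level of 9.58 untreated and 9.13 with IFN-γ. Of these, 20 lay below 0, with a median difference of -0.42, and Cx3cr1 and Gpr34 were lower by 2-fold or more. Csf1r stood at 9.82 untreated and 9.18 with IFN-γ, Tyrobp at 10.24 and 9.90, and Ptprc, the only marker above 0, at 8.86 and 9.09. Markers of microglia were thus measured beside those of astrocytes, and their mean level was higher in the untreated culture. In such bulk samples fewer cells of a type and less RNA per cell cannot be told apart, and which cells made any transcript named below was not tested. Of 11 T cell and natural killer cell markers on the table only Cd4 passed (11.11 and 10.84), while Cd3e stood at 4.14 and 4.15. Of 9 neutrophil markers only 3 passed, and S100a8 was at 3.27 and 3.16, under the table median on both arrays. Oligodendrocyte, neuron, endothelial, meningeal and ependymal markers had median differences of 0.13, 0.15, 0.10, 0.03 and -0.01, and no marker of these 5 lists reached 2-fold.

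Chemokines, the secreted proteins that guide leukocytes, held the highest differences of the table. Of 28 chemokine ligands that passed, 12 were higher by 2-fold or more and 1 lower by 2-fold or more, against 1.61% and 0.288% of all genes, and their median difference was 0.39. Cxcl2, a ligand of the neutrophil receptor CXCR2, had a log2 level of 7.24 untreated and 11.66 with IFN-γ, a difference of 4.43 or 21.5-fold. Ccl20, the ligand of CCR6 on Th17 and dendritic cells, stood at 7.92 untreated and 12.11 with IFN-γ, 18.2-fold higher. Both were the widest differences of all genes tested. The membrane-bound chemokine Cx3cl1 stood at 9.47 and 11.99, a log2 difference of 2.53. Its receptor gene Cx3cr1, a microglial marker, stood the other way, at 9.11 untreated and 7.89 with IFN-γ. Ccl22, a chemokine that draws regulatory T cells, was the 1 ligand lower by 2-fold or more, with 7.94 and 6.90. The 15 ligands short of 2-fold in either direction included Pf4, platelet factor 4, at 8.43 and 7.97, Ccl6 at 9.91 and 9.29, and Ccl12 at 9.62 and 10.22. Cxcl3, another CXCR2 ligand, did not pass, with 3.29 and 3.77.

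Cytokine ligands followed the chemokines. Of 34 interleukins, colony-stimulating factors and TNF family ligands that passed, 12 were higher by 2-fold or more and 0 lower by 2-fold or more, with a median difference of 0.31. Il6, the gene of the main acute-phase cytokine, had a log2 level of 6.72 untreated and 10.45 with IFN-γ, 13.3-fold. Il1a and Il1b, the 2 interleukin-1 agonists, stood at 8.85 and 11.68 and at 9.20 and 11.12, whereas their antagonist Il1rn stood at 6.65 and 6.91. Lif, a ligand of the shared receptor gp130, was at 8.22 untreated and 10.02 with IFN-γ. All 4 agonists were higher with IFN-γ, and the antagonist differed by 0.26. Among the growth factors of myeloid cells, Csf2, which encodes GM-CSF, was at 5.48 untreated, under the table median, and 7.88 with IFN-γ. Csf1, which encodes the ligand of the macrophage receptor CSF1R, was at 10.17 and 11.76, while Csf1r itself was lower by the values given above. Il34, the other CSF1R ligand, stood at 7.92 and 8.02. The T cell growth factor gene Il15 stood at 5.39 and 6.83, with only the IFN-γ array above the table median. With low values raised, Il15 and Tnfsf4 of these 12 genes came under 2-fold, which left 10. Il12a, the p35 subunit of interleukin-12, stood at 5.70 and 7.12, while Il12b, its partner subunit, did not pass at 5.20 and 5.34. Il10, an anti-inflammatory cytokine, was at 6.48 untreated and 5.76 with IFN-γ.

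TNF family ligands that costimulate T cells were among the higher genes. Of 11 that passed, 4 were higher by 2-fold or more, with a median difference of 0.24 and a mean of 0.87. Tnf itself had a log2 level of 8.31 untreated and 11.49 with IFN-γ, a difference of 3.18. Tnfsf15, the gene of the ligand TL1A, stood at 7.43 and 9.76. Tnfsf18, which encodes GITR ligand, stood at 4.22 and 7.0, and Tnfsf4, which encodes OX40 ligand, at 4.95 and 6.17. The last 2 started under the table median and passed through the IFN-γ array alone. With lower values raised to that median their differences became 1.17 and 0.33 in place of 2.78 and 1.22. That left 3 of the 4 genes higher by 2-fold or more.

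Receptors differed less than ligands. Of 39 interleukin, colony-stimulating factor and TNF family receptors that passed, 2 were higher by 2-fold or more and 0 lower, with a median difference of 0.04. These were Cd40, the costimulatory receptor for CD40 ligand, at 6.32 untreated and 7.99 with IFN-γ, and Fas, the death receptor, at 8.93 and 10.44. Receptors of the ligands just named stayed under 2-fold: Il6st, the gp130 signalling chain, stood at 11.09 and 11.29, and Tnfrsf1b, a TNF receptor, at 8.34 and 8.67. Il1r1, the interleukin-1 receptor, had 8.43 and 9.10, a log2 difference of 0.67. Among 9 chemokine receptors 2 were higher by 2-fold or more and 1, Cx3cr1, lower by 2-fold or more. Ccrl2, an atypical receptor that binds chemerin without signalling, stood at 5.53 untreated and 9.35 with IFN-γ, and Cxcr5, the receptor of follicular B and T cells for CXCL13, at 4.75 and 7.76. Both were under the table median without IFN-γ. With values raised to that median their differences were 3.52 and 1.93 in place of 3.82 and 3.02. The other 7 lay below 0, Cxcr4 among them at 9.13 and 8.65, so the list's median was -0.14 while its mean was 0.40.

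**Figure D2:**
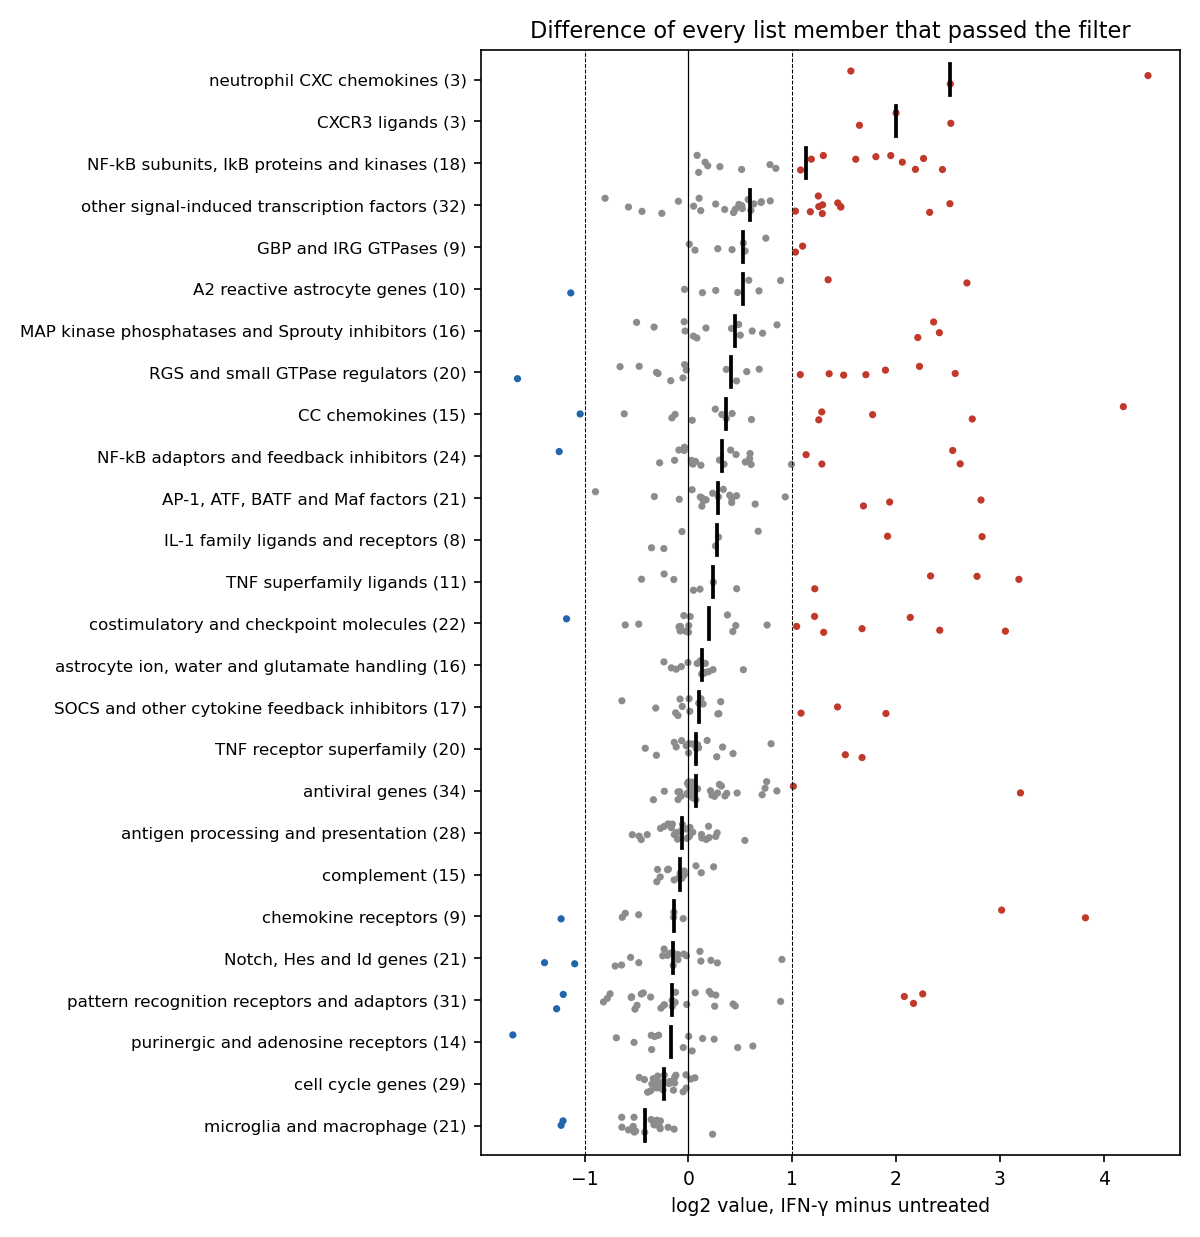
Log2 difference, IFN-γ minus untreated, of every member that passed the filter in 26 of the gene and marker lists (1 point per gene, number of genes in brackets, 1 array per culture); black bars are list medians and dashed lines mark 2-fold. The medians run from 2.52 for neutrophil CXC chemokines to -0.42 for microglia and macrophage markers, and most lists with a median near 0 still hold single genes far to the right.

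The genes of the NF-κB pathway itself lay above 0 together. All 18 NF-κB subunits, IκB proteins and IκB kinases on the table passed and had a positive difference, against 40.1% of all genes, and 10 of them were higher by 2-fold or more, with a median of 1.13. Most IκB genes stood out. Nfkbid, an atypical IκB that acts in the nucleus, had a log2 level of 7.33 untreated and 9.78 with IFN-γ, 5.45-fold. Bcl3, another nuclear IκB, stood at 8.48 and 10.74, and Nfkbie, the gene of IκBε, at 8.27 and 10.46. Nfkbiz, the gene of IκBζ, which helps p50 switch on Il6, was at 9.17 and 11.12, and Nfkbia, the gene of IκBα, at 10.38 and 12.19. These 5 IκB genes were between 3.5-fold and 5.45-fold higher with IFN-γ, while Nfkbib, the gene of IκBβ, was 1.79-fold higher (8.66 and 9.51). Among the subunits, Rel stood at 7.54 and 9.60, Nfkb2 at 8.32 and 9.93, Relb at 7.60 and 8.90, Nfkb1 at 9.82 and 10.90, and Rela at 10.87 and 11.66. The order of the differences thus ran from Rel at 2.06 to Rela at 0.79, and 1 array per culture gives no spread against which neighbours in this order could be compared. The 3 parts of the IκB kinase complex differed little, with Ikbkb at 8.10 and 8.40, Chuk at 7.58 and 7.77, and Ikbkg at 7.50 and 7.66. Map3k8, the kinase TPL2 that p105 holds inactive, stood at 7.54 and 8.73.

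Adaptors upstream of NF-κB were more mixed. Of 24 that passed, 4 were higher by 2-fold or more and 1 lower by 2-fold or more, with a median of 0.32. Birc3 and Birc2, the ubiquitin ligases cIAP2 and cIAP1 of the TNF receptor complex, stood at 8.55 and 11.17 and at 8.08 and 9.37. Ripk2, the kinase of the NOD receptors, stood at 9.20 untreated and 11.75 with IFN-γ, and Irak2, a kinase of Toll-like and interleukin-1 receptors, at 7.34 and 8.47. Ripk1, a kinase of the TNF receptor complex chosen here after its value was seen, had a log2 difference of 0.03. Tnfaip8l2, also called TIPE2, which restrains Toll-like and T cell receptor signals, was the 1 lower gene, at 8.69 and 7.44. Tnip3, which binds the deubiquitinase A20, stood at 6.79 and 7.78, just under 2-fold.

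**Figure D3:**
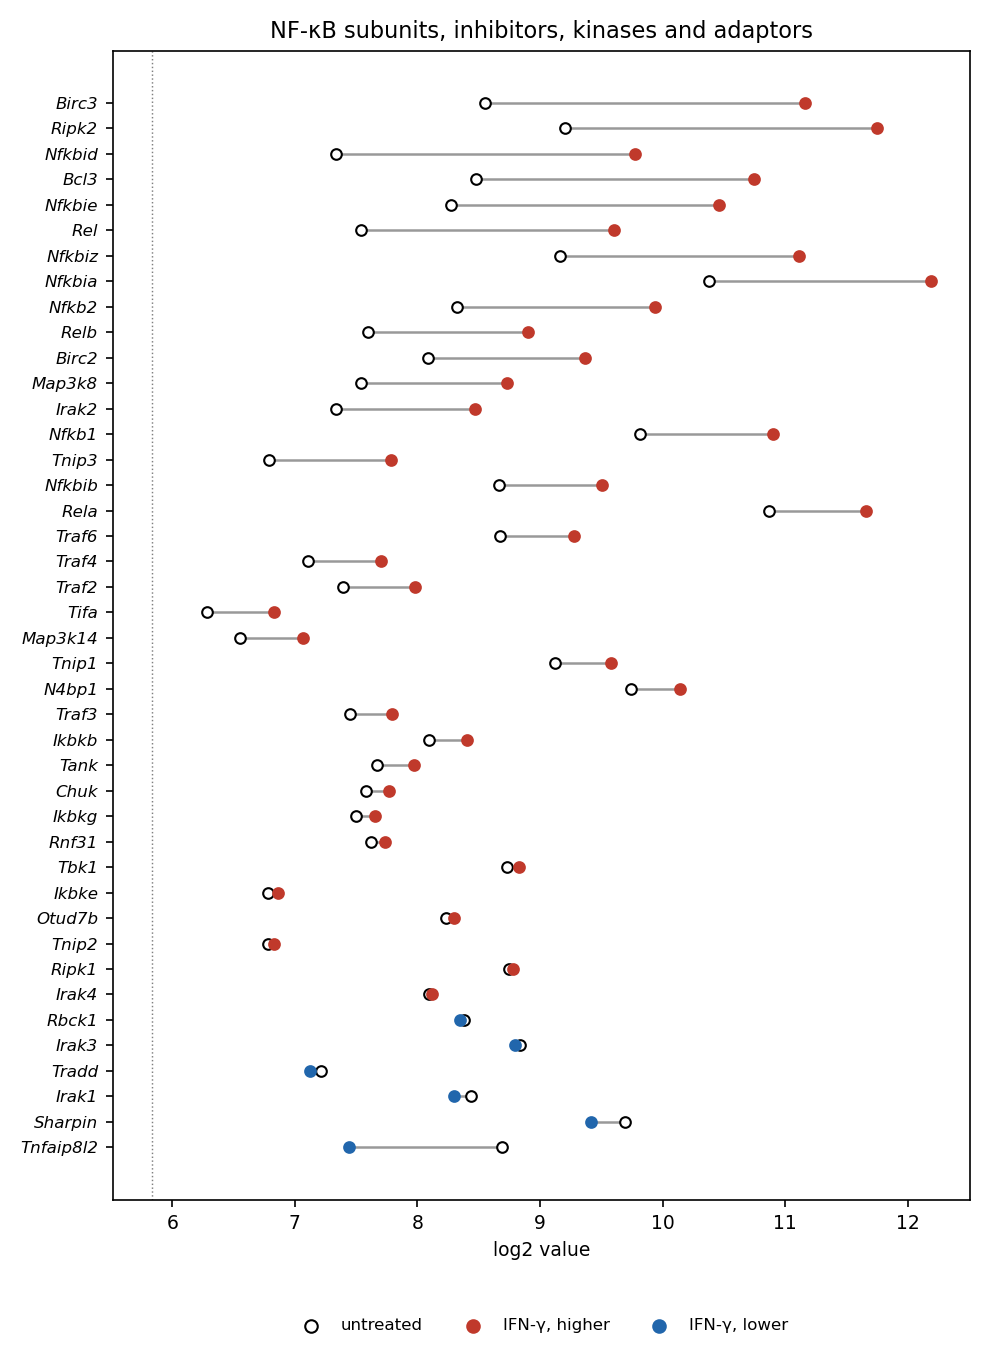
Log2 level of the 42 NF-κB subunits, IκB proteins, kinases, adaptors and feedback inhibitors that passed, in the untreated culture (open circles) and the IFN-γ culture (red where higher, blue where lower), 1 array each, ordered by the difference; the dotted line is the table median of 5.83. The 18 subunits, IκB proteins and kinases all have the IFN-γ point to the right, and Tnfaip8l2 at the bottom is the 1 gene more than 2-fold to the left.

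Inhibitors that act on messenger RNA or on kinases were higher in part. Among 21 messenger RNA decay factors 3 were higher by 2-fold or more, around a median of 0.02. Zc3h12a, the nuclease Regnase-1 that cleaves the Il6 transcript, had a log2 level of 8.02 untreated and 9.88 with IFN-γ. Zfp36, or tristetraprolin, which brings AU-rich cytokine transcripts to decay, stood at 10.63 and 12.07, and Arid5a, which protects the Il6 transcript from Regnase-1, at 6.50 and 7.81. The nuclease, the decay factor and the protecting factor were thus all higher in the IFN-γ culture. The relatives of Zfp36 differed from it, with Zfp36l1 at 11.54 and 12.07 and Zfp36l2 at 10.91 and 10.61. Of 16 MAP kinase phosphatases and Sprouty inhibitors, 3 were higher by 2-fold or more, with a median of 0.45. Dusp1, which dephosphorylates p38 and JNK, stood at 8.46 and 10.67, and Dusp2, a nuclear phosphatase, at 7.03 and 9.39. Spry1, an inhibitor of growth factor receptor signalling, stood at 5.59 untreated, under the table median, and 8.01 with IFN-γ. Dusp6 stood at 7.12 and 7.84, and Dusp7 lay below 0 at 9.11 and 8.61.

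Transcription factors that cells make within hours of a signal were also higher. Of 32 such factors outside the AP-1 family, 11 were higher by 2-fold or more and 0 lower, with a median of 0.59, against 1.61% of all genes. Csrnp1, a nuclear protein, had a log2 level of 6.34 untreated and 8.86 with IFN-γ. Spib, an ETS factor of B cells and dendritic cells, stood at 5.45 and 7.77, the first of these under the table median. Hivep1, a zinc finger protein that binds κB-type sites, stood at 8.27 and 9.73, and Runx1, a factor of blood cell development, at 7.57 and 8.74. These 4 genes were between 2.26-fold and 5.73-fold higher. Within the 21 AP-1, ATF, BATF and Maf factors 3 were higher by 2-fold or more and the median was 0.29. Maff, a small Maf protein, stood at 6.14 and 8.95, Junb at 7.96 and 9.90, and Fosl1 at 8.03 and 9.71. Jun stood at 9.33 and 9.97, and Maf, a macrophage factor, was the lowest of the list at 9.76 and 8.87.

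The genes of the interferon pathway itself differed unequally. Of 13 interferon receptor, Jak and Stat genes 1 was higher by 2-fold or more, Stat5a, at 8.03 untreated and 9.18 with IFN-γ. Of the IFN-γ receptor and its kinases, Ifngr2 stood at 8.81 and 9.64 and Jak2 at 9.49 and 10.38, whereas their partners Ifngr1, at 9.83 and 9.92, and Jak1, at 10.24 and 10.26, were near 0. The chain IFNGR2 and the kinase JAK2, which work together, thus had log2 differences of 0.84 and 0.88, both under 2-fold, and the other pair 0.10 and 0.01. Stat3 stood at 10.83 and 11.41. Of 17 SOCS and other cytokine inhibitors 3 were higher by 2-fold or more: Socs1, which blocks JAK kinases, at 6.70 and 8.60, Socs2 at 6.49 and 7.93, and Cish at 6.18 and 7.27. Socs3 stood at 8.76 and 9.05. The phosphatase gene Ptpn6, which blood cells carry, was the lowest of this list, at 10.10 and 9.46.

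Among 9 IRF family genes Irf1 and Irf8 were higher by 2-fold or more and the median was 0.05. Irf1, the factor that carries the IFN-γ signal to later genes, had a log2 level of 9.44 untreated and 12.07 with IFN-γ, 6.2-fold. Irf8 stood at 7.0 and 8.02, and Irf5 below 0 at 7.64 and 7.32. The 9 GBP and IRG GTPases, which attack the vacuoles of microbes, all lay above 0, against 40.1% of all genes, with a median of 0.53. Gbp7, at 10.27 and 11.37, and Gbp5, at 11.07 and 12.10, were higher by 2-fold or more, and the others, such as Gbp2 at 10.16 and 10.71, were not. Of 34 antiviral genes 2 were higher by 2-fold or more and the median was 0.07. One was Ifnb1, the gene of interferon-β, at 5.07 untreated and 8.27 with IFN-γ, a log2 difference of 3.20 that becomes 2.44 with the lower value raised to the table median. The other was Cmpk2 at 10.25 and 11.26. Rsad2, the gene of viperin, stood at 11.64 untreated and 12.36 with IFN-γ. The 28 genes of antigen presentation that passed had a median of -0.06, and 0 of them were at 2-fold. Tap1, the peptide transporter, was the highest at 9.12 and 9.67, and RT1-DMb, which loads peptides on class II molecules, the lowest at 8.46 and 7.92. Ciita, the master regulator of class II genes, did not pass, at 4.93 and 5.47.

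To show the promoters behind the feedback and cytokine genes, the 250 bases before the start site are printed for 6 of them, 4 with a match to a κB letter pattern and 2 with a match to the GAS pattern. The sequences are those of RefSeq for rat assembly GRCr8, read 5′ to 3′ on the strand of the gene, in lower case, with the matches in capitals. The κB pattern searched was GGGA, any 3 bases, then TCC; the GAS pattern was TTCNNNGAA; the pattern of the interferon-stimulated response element (ISRE) was TTTC, any 2 bases, then TTTC. Each was searched on both strands.
Il6, chr4:5894576-5894825, minus strand, capitals mark 2 overlapping κB matches: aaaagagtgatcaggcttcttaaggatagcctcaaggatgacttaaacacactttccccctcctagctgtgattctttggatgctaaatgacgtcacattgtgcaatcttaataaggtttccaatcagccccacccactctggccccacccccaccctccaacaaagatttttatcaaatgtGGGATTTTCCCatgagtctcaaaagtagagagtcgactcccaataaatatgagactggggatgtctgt
Ifnb1, chr5:108067488-108067737, minus strand, capitals mark 2 κB matches: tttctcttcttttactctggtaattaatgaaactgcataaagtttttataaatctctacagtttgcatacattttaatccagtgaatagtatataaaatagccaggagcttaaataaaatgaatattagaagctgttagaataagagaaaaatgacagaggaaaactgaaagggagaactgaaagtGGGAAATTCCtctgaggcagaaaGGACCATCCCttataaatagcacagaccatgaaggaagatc
Cxcl1, chr14:17479322-17479571, minus strand, capitals mark 2 overlapping κB matches: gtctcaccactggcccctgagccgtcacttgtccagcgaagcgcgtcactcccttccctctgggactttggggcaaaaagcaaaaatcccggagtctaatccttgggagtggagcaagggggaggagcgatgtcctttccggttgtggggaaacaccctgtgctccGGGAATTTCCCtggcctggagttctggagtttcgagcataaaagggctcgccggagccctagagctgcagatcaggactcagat
Nfkbid, chr1:94808209-94808458, plus strand, 1 of 4 listed starts, capitals mark 1 κB match: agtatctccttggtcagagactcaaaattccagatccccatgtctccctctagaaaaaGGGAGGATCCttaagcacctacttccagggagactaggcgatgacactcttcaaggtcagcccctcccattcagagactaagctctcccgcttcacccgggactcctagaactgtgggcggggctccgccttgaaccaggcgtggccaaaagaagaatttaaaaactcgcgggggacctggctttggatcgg
Irf1, chr10:38417685-38417934, plus strand, capitals mark 1 GAS match: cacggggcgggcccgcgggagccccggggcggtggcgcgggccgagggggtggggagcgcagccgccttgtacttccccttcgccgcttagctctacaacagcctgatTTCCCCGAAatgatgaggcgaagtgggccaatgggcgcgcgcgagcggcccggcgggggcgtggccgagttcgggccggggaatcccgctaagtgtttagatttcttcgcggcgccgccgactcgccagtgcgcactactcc
Socs1, chr10:5389324-5389573, plus strand, capitals mark 1 GAS match and then 2 overlapping ISRE matches: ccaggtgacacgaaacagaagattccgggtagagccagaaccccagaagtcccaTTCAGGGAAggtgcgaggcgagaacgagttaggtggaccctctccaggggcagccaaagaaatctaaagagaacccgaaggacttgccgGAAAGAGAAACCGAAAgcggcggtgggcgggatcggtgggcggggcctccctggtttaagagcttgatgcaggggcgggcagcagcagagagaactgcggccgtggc

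In Il6 the κB matches lay 68 to 58 bases before the start, in Cxcl1 84 to 74, in Nfkbid 192 to 183, and in Ifnb1 64 to 55 and 41 to 32. The GAS match of Irf1 lay 142 to 134 bases before the start and that of Socs1 196 to 188, with its ISRE matches 107 to 92 bases before it. These genes were chosen because they hold a match, with their values known, so they show what the letters look like and no more. Promoters were listed for 149 of the 190 higher genes, 30 of the 34 lower genes and 9672 of the 11790 that passed. A κB match stood in a window of 15 of the 149 higher genes (10.1%) and 437 of all 9672 (4.52%). An AP-1 match, TGANTCA, stood in 21 of the higher genes (14.1%) and in 4.97% of all, and a cyclic AMP response element, TGACGTCA, in 8 (5.37%) and 2.88%. For the GAS pattern the shares were 13 genes (8.72%) and 6.26%, and for the ISRE pattern 7 genes (4.70%) and 2.98%. Of the 30 lower genes 3 held the GAS pattern (10%) and 2 the ISRE pattern (6.67%), both shares above those of the higher genes. Per window the order was reversed: GAS stood in 6.82% of lower and 7.98% of higher windows, and ISRE in 4.55% and 6.75%. Windows of a gene with several starts are not independent, and a few genes weigh on these shares. The 11 higher windows with ISRE came from 7 genes, and 1 of these, A630001G21Rikl, had 5 windows. Among the lower genes Pilrb2l4 had 8 windows and Nfam1 had 6, without a GAS or ISRE match. The order per window is therefore not a finding about the genes. The κB pattern stood in 2 lower genes (6.67%), the AP-1 pattern in 1 (3.33%) and the cyclic AMP element in 0. In the 100 bases nearest the start the κB share was 7.38% of the higher genes and 1.72% of all, that of AP-1 6.04% and 1.69%, that of ISRE 3.36% and 1.25%, and that of GAS 1.34% and 2.01%, so that GAS was then less frequent among the higher genes than among all. The GC box GGGCGG, a site of housekeeping promoters, stood in 61.1% of the higher genes and 58.7% of all, but in 8 of the 30 lower genes (26.7%). Of all 33469 windows of the promoter table, whatever the gene, 3.38% held the κB pattern, 6.34% AP-1, 1.59% the cyclic AMP element, 7.67% GAS, 3.41% ISRE and 30.5% the GC box. Genes had 1.09 windows on average among the higher, 1.47 among the lower and 1.10 among all. A gene counted once except where shares are given per window. Higher genes with a κB match included Nfkbia, Nfkb2, Nfkbiz, Cxcl6, Cxcl10, Cxcl11, Ccl7, Gbp5 and Il12a, and those with a GAS match Icam1, Irf8, Cish, Csf2, Gbp7 and Nlrp3. A match is a run of letters and not a measured site.

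Enzymes that make inflammatory mediators were higher one by one rather than by list. Of 14 nitric oxide and tetrahydrobiopterin genes 2 were higher by 2-fold or more, around a median of 0.00 whose sign depended on the scaling of the arrays. Nos2, the inducible nitric oxide synthase, had a log2 level of 5.83 untreated and 8.30 with IFN-γ, and Gch1, the first enzyme of its cofactor tetrahydrobiopterin, stood at 6.25 and 7.62. The next enzymes of that cofactor lay below 0, Pts at 6.48 and 6.32 and Spr at 7.35 and 7.06. The entry step of the cofactor was thus higher and the later steps were not. Among 21 prostaglandin and leukotriene genes 2 were higher by 2-fold or more, with a median of -0.02 that also turned sign with the scaling. Ptgs2, the inducible cyclooxygenase COX-2, stood at 8.45 and 11.14, while Ptgs1, the constant form COX-1, stood at 9.10 and 8.47. Ptger4, a receptor of prostaglandin E2, stood at 7.74 and 9.86. Of 14 enzymes that link metabolism to immunity, 2 were higher by 2-fold or more: Acod1, which makes itaconate, at 7.26 and 9.83, and Ch25h, which makes 25-hydroxycholesterol, at 9.81 and 12.05. Ido1, the tryptophan enzyme often used as an IFN-γ marker, did not pass, with 4.09 and 4.29. Olr1, the receptor LOX-1 for oxidised LDL, was among the 10 genes at least 8-fold higher, at 6.72 untreated and 10.37 with IFN-γ, 12.5-fold.

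Surface molecules that engage T cells and leukocytes were frequent among the higher genes. Of 22 costimulatory and checkpoint molecules 7 were higher by 2-fold or more and 1 lower, with a median of 0.20. Slamf7, at 4.85 and 5.89, passed through the IFN-γ array alone, and with low values raised 6 stayed higher and the median was 0.04. A filter on the mean of the 4 arrays gave a median of 0.02. Cd83, a maturation marker of dendritic cells, had a log2 level of 8.36 untreated and 11.41 with IFN-γ. Pvr, the ligand of CD226 and TIGIT, stood at 8.20 and 10.63, Cd86, a ligand of CD28, at 9.01 and 10.31, and Icoslg, the ligand of ICOS, at 6.85 and 8.06. The checkpoint ligand gene Cd274, which encodes PD-L1, stood at 9.36 and 10.12, under 2-fold. The lower gene was Cd200r1, the inhibitory receptor of microglia and macrophages for CD200, at 7.22 and 6.04, while its ligand Cd200 stood at 6.35 and 6.72. Of 13 adhesion genes that passed, 3 were higher by 2-fold or more, Icam1 at 10.19 and 12.39, Vcam1 at 10.79 and 12.22, and Icam4 at 4.90 and 5.95, where both values of Icam4 lay near or under the table median and its difference with low values raised was 0.12.

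Pattern recognition receptors went both ways. Of 31 that passed, 3 were higher by 2-fold or more and 2 lower by 2-fold or more, and the median was -0.16. Nlrp3, the sensor of the inflammasome, stood at 6.67 untreated and 8.93 with IFN-γ. Clec4e, or Mincle, and its partner Clec4d stood at 4.20 and 6.37 and at 4.28 and 6.36, both under the table median on each array but that with IFN-γ alone. Cd180, a relative of TLR4 on myeloid and B cells, stood at 9.50 and 8.24, and Tlr5, the flagellin receptor, at 6.49 and 5.29, above the table median on the untreated array alone. With low values raised, Clec4e, Clec4d and Tlr5 had differences of 0.54, 0.53 and -0.66, which left 1 receptor higher and 1 lower by 2-fold or more. Tlr4 itself stood at 6.73 and 6.18 and its partner Ly96 at 7.57 and 6.79, while Cd14, which hands lipopolysaccharide to them, was at 10.18 and 11.07. The coreceptor was thus higher and the signalling pair lower with IFN-γ, each by less than 2-fold. The microglia and macrophage markers differed by a median of -0.42 between the same arrays, and their part in the lower receptors was not tested.

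Secreted growth factors and matrix genes held a few genes far above the rest of their lists. Of 33 growth factors that passed, 4 were higher by 2-fold or more and the median was 0.03. Bmp2, a bone morphogenetic protein, had a log2 level of 7.01 untreated and 9.49 with IFN-γ, 5.57-fold. Edn1, the vasoconstrictor endothelin-1, stood at 6.06 and 7.72, Gdf15, a stress cytokine, at 8.06 and 9.59, and Angptl4, an inhibitor of lipoprotein lipase, at 8.54 and 9.82. These 4 stood apart from the rest of their list, whose next highest member was Pdgfb at 6.47 and 7.02. Igf1, a trophic factor, lay lowest at 8.47 and 7.93. Of 26 proteases, inhibitors and matrix genes 3 were higher by 2-fold or more. Has2, the hyaluronan synthase, stood at 7.52 and 10.29, Adamts4, a protease that cuts proteoglycans, at 6.71 and 8.39, and Ptx3, a soluble pattern receptor, at 6.26 and 7.60. Adamts1, a related protease, lay below 0 at 6.91 and 6.37.

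Regulators of G protein and small GTPase signals formed a further group, with 7 of 20 higher by 2-fold or more, 1 lower by 2-fold or more and a median of 0.41. Rnd1, a small GTPase that loosens adhesion, stood at 5.78 untreated and 8.35 with IFN-γ. Rgs16 stood at 7.93 and 10.16, Rgs2 at 7.20 and 9.10, and Rgs1 at 8.46 and 10.17; these proteins speed up the end of a G protein signal. Rasgef1b, an exchange factor for small GTPases, stood at 7.94 and 9.44. Rasd1, a Ras-like protein known from glucocorticoid treatment, had the next lowest difference of all genes after P2ry6, at 8.50 and 6.85. Stx11, a syntaxin of granule release, and Tnfaip2, a TNF-responsive gene, were not list members and came in through their rank, at 7.06 and 9.76 and at 9.09 and 11.56.

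Death and survival genes included both kinds. Of 26 that passed, 6 were higher by 2-fold or more and 1 lower, with a median of 0.10. Ripk3, the kinase of necroptosis, had a log2 level of 6.73 untreated and 8.97 with IFN-γ, while Mlkl, its substrate, chosen after its value was seen, was at 8.79 and 8.66. Pmaip1, the death protein NOXA, stood at 7.12 and 8.68. On the survival side, Cflar, the caspase-8 inhibitor FLIP, stood at 8.63 and 9.76, Gadd45b at 9.11 and 11.15, and the kinase gene Pim1 at 8.64 and 10.65. Genes that promote and genes that restrain cell death were thus both higher. Gadd45a, a growth arrest gene and relative of Gadd45b, was lower, at 10.58 and 9.30, and the other relative, Gadd45g, stood at 8.76 and 8.47.

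The 34 genes lower by 2-fold or more were fewer and closer to 0. P2ry6, a receptor for UDP that microglia use in phagocytosis, had the lowest difference, with a log2 level of 8.65 untreated and 6.95 with IFN-γ, 3.23-fold lower. It was the 1 gene of 14 purinergic and adenosine receptors past 2-fold. Of 21 receptors for lipids and metabolites, 4 were lower by 2-fold or more, namely Gpr31 (7.30 and 5.95), Lpar5 (7.01 and 5.67), Gpr18 (7.85 and 6.59) and Gpr34 (8.10 and 6.89). In the same list 2 receptors were higher by 2-fold or more, Hcar2, the receptor of niacin and β-hydroxybutyrate, at 7.35 and 10.32, and S1pr3, a receptor of sphingosine-1-phosphate, at 9.75 and 11.03. A further 4 genes with low differences are known from blood cells or microglia: Nfam1, an activating receptor with an ITAM motif, at 8.48 and 6.94, Dapp1, a B cell adaptor, at 7.82 and 6.57, Marchf1, a ubiquitin ligase of class II molecules, at 6.96 and 5.66, and Gna15, a G protein subunit of blood cells, at 7.25 and 5.99. They were lower by 2.38-fold to 2.9-fold, beside the median of -0.42 over the 21 microglia and macrophage markers, and the part of those cells in the lower genes was not tested. Of the 34 lower genes 2, Cx3cr1 and Gpr34, were on that marker list. They were 2 of its 21 members that passed, against 0.288% of all genes lower by 2-fold or more.

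Other lower genes belong to development and metabolism. Pdk4, the kinase that turns off pyruvate dehydrogenase, had a log2 level of 9.24 untreated and 7.99 with IFN-γ and was the only member of 18 glucose uptake and glycolysis genes past 2-fold. In the Notch, Hes and Id list 16 of 21 lay below 0, against 59.8% of all genes, with a median of -0.15 and 2 lower by 2-fold or more. Hey2, a Notch target, stood at 8.19 and 7.10, and Ripply2 at 6.22 and 4.83, under the table median with IFN-γ and short of 2-fold with low values raised (-0.39). Id1, a target of BMP signalling, stood at 8.56 and 7.85 while Bmp2 was higher, and the Notch ligand gene Jag1 stood above 0 at 8.47 and 9.37 while Hey1 (8.33 and 7.77) and Hey2 stood below. Nrarp, another Notch target, chosen after its value was seen, stood above 0 at 6.07 and 6.35, so the Notch targets named lay on both sides of 0. Slc10a6, a steroid sulphate transporter counted among the A2 reactive astrocyte genes, stood at 7.69 and 6.56. It was the 1 lower gene by 2-fold or more of that list, which otherwise went the other way. Of its 10 genes that passed, 8 lay above 0, against 40.1% of all genes, with a median of 0.53, and 2, Ptgs2 and Ptx3, were higher by 2-fold or more. The proliferation genes differed little but alike: 27 of 29 cell cycle genes lay below 0, against 59.8% of all genes. None was at 2-fold, the median was -0.24, and Rrm2, a ribonucleotide reductase subunit, was lowest at 8.99 and 8.52. Ribosomal protein genes (21 of 23) and respiratory chain genes (25 of 28) lay mostly below 0 as well. Astrocyte water and glutamate handling had a median of 0.13 over 16 genes, with the water channel Aqp4 highest at 11.01 and 11.54.

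**Figure D4:**
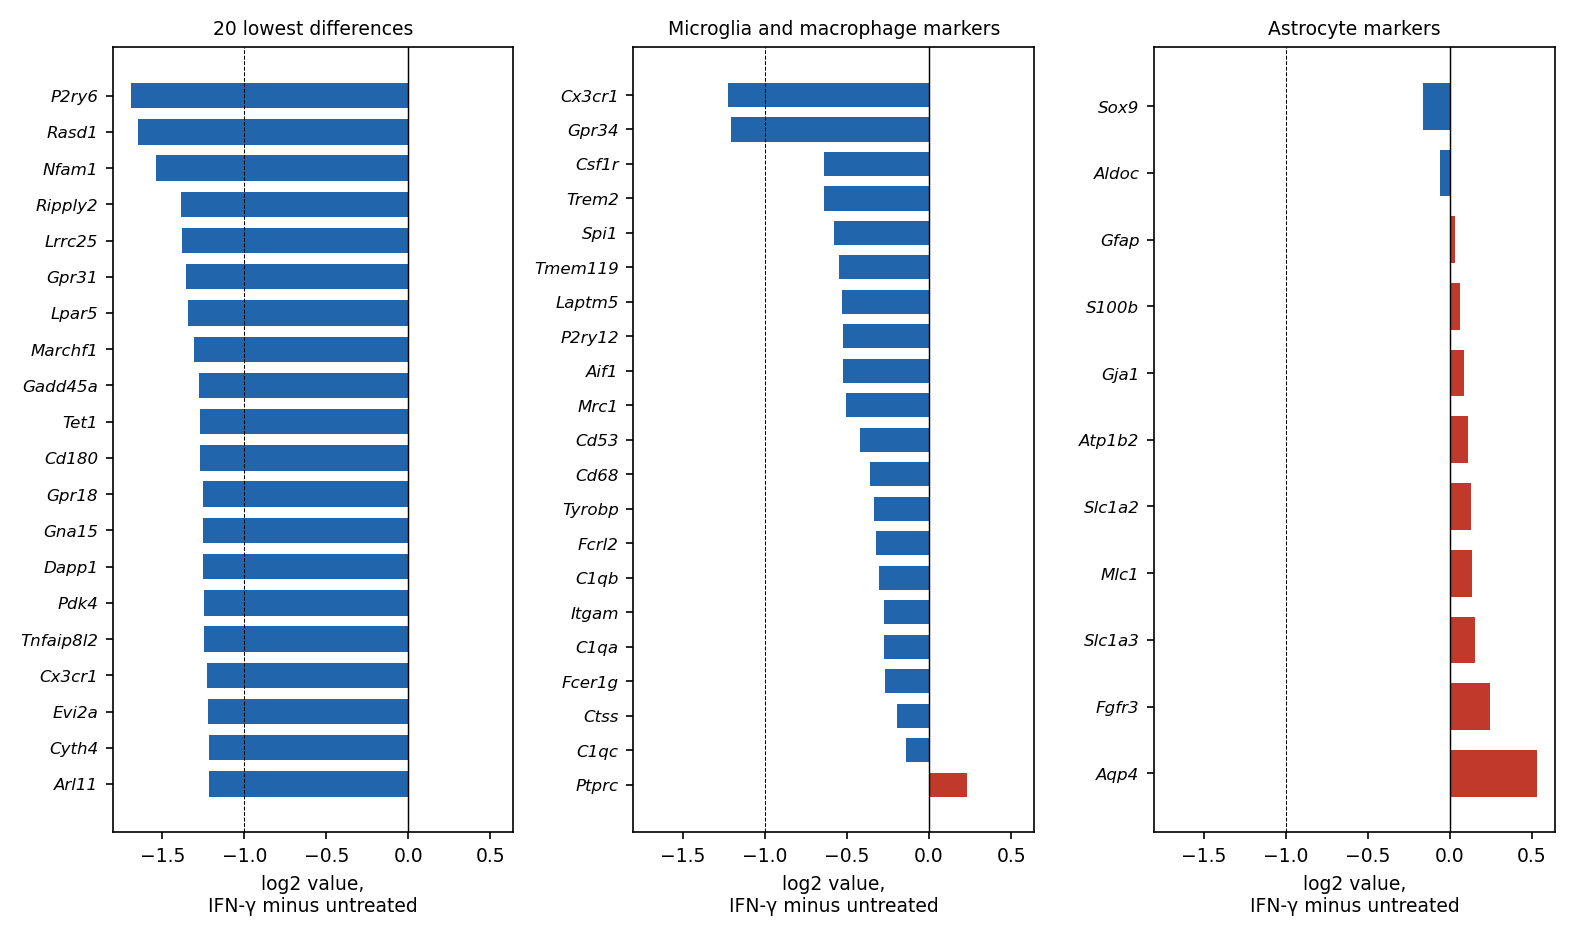
Log2 difference, IFN-γ minus untreated, of the 20 named genes with the lowest values (left), of the 21 microglia and macrophage markers that passed (middle) and of the 11 astrocyte markers that passed (right); bars start at 0, the dashed line marks 2-fold lower, and there is 1 array per culture. The lowest bar is P2ry6 at -1.69, 20 of the 21 microglia and macrophage bars point left, and 9 of the 11 astrocyte bars point right.

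The other 2 cultures had IFN-γ as well, but with GW, so their levels are set beside the pair without a comparison of differences that share an array. For Cxcl2 the log2 level was 7.24 untreated, 11.66 with IFN-γ, 10.83 with IFN-γ and GW, and 11.33 with SHP siRNA, IFN-γ and GW. Il6 stood at 6.72, 10.45, 10.95 and 10.03 in the same order, and Irf1 at 9.44, 12.07, 11.93 and 12.27. For these 3 genes the untreated culture was the lowest of the 4, and the 3 cultures with IFN-γ lay nearer to one another than to it. They do not stand for all higher genes. Cxcl9 stood at 7.20, 9.73, 6.87 and 9.18 in the same order, and Il1b at 9.20, 11.12, 9.18 and 10.06. Cd69 stood at 6.21, 8.35, 5.89 and 6.35, and Stat5a at 8.03, 9.18, 7.90 and 8.35. In each of these genes the culture with control siRNA, IFN-γ and GW was the lowest. How many of the 190 higher genes went each way was not counted. Socs1 stood at 6.70, 8.60, 6.73 and 7.88, so that the culture with IFN-γ and GW lay near the untreated one. Ifnb1 stood at 5.07, 8.27, 7.45 and 7.55. Among the lower genes P2ry6 stood at 8.65, 6.95, 7.53 and 7.31, the untreated culture highest of the 4. Gadd45a stood at 10.58, 9.30, 11.03 and 10.38, and Rasd1 at 8.50, 6.85, 8.34 and 7.41. For Gadd45a the culture with IFN-γ alone was the lowest and both cultures with GW lay near or above the untreated one. The microglia and macrophage markers had mean log2 levels of 9.58, 9.13, 8.67 and 8.89 over the 4 arrays, highest without IFN-γ.

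**Figure D5:**
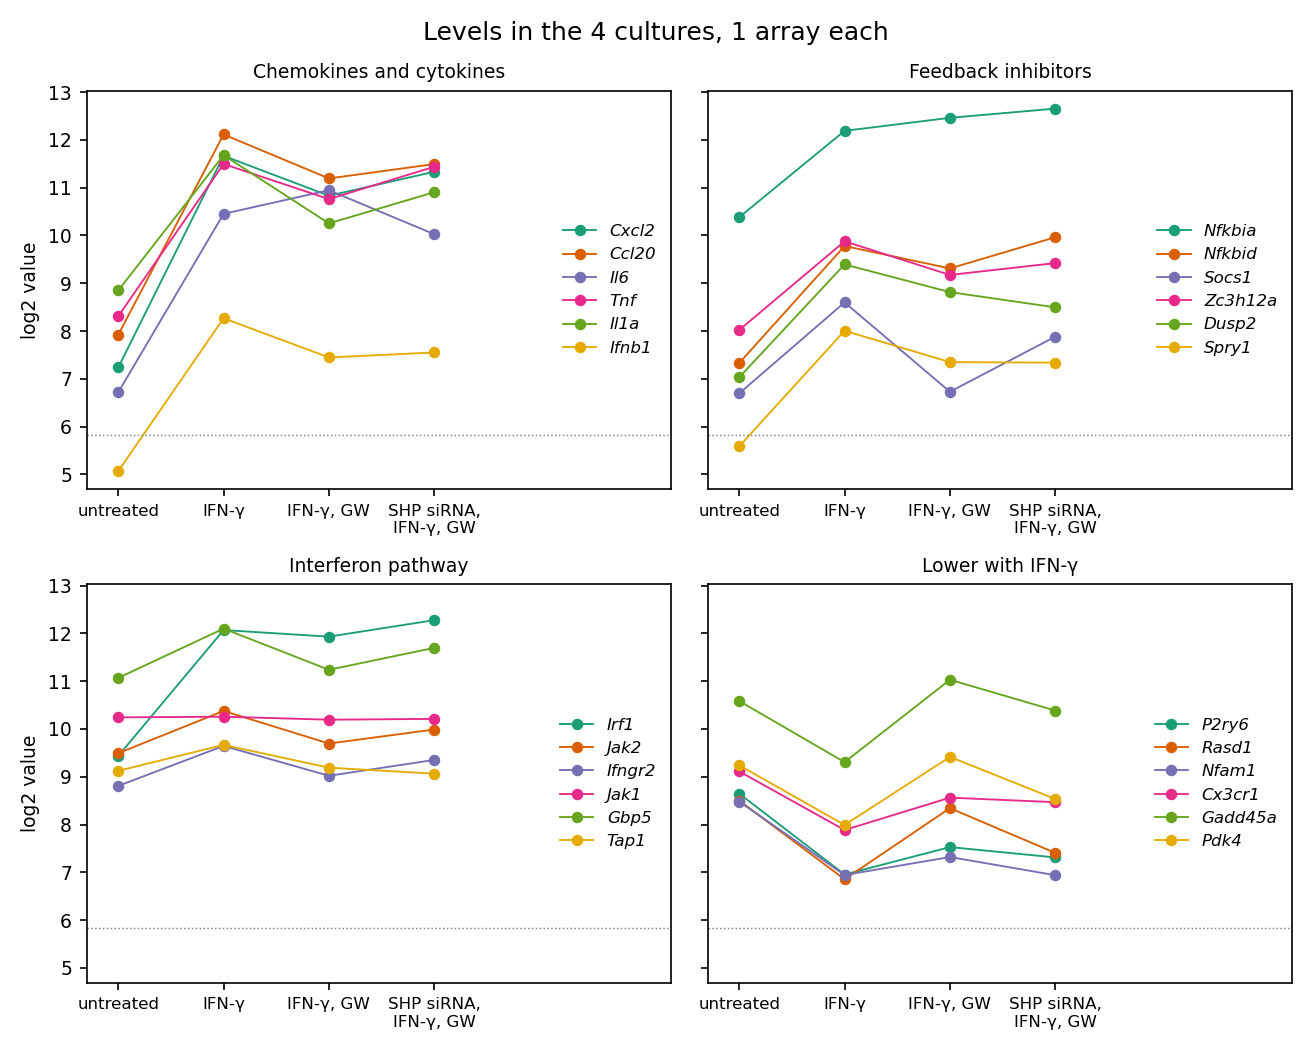
Log2 level in each of the 4 cultures, 1 array each, of 6 chemokines and cytokines, 6 feedback inhibitors, 6 interferon pathway genes and 6 genes lower with IFN-γ; lines join the values of a gene and the dotted line is the table median of 5.83. The 6 chemokines and cytokines shown are lowest in the untreated culture, while Cxcl9 and Il1b, not drawn, were lowest with IFN-γ and GW. Socs1 is near its untreated level in the culture with IFN-γ and GW (6.73 against 6.70), and Gadd45a, Rasd1 and Pdk4 are lowest with IFN-γ alone.

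Genes higher with IFN-γ were in part neighbours on the chromosome. Ordered along GRCr8, the genes that passed formed 11707 neighbouring pairs, and in 18 of them both genes were higher by 2-fold or more. These made 17 groups that held 35 genes, 18.4% of the 190. Among all genes that passed, 1.61% were higher by 2-fold or more. The number of such pairs for genes placed at random was not worked out. Some are known gene clusters of related proteins, namely Cxcl11, Cxcl10 and Cxcl9, then Cxcl2 and Cxcl1, Ccl2 and Ccl7, Ccl3 and Ccl4, Il1a and Il1b, Tnfsf4 and Tnfsf18, Rgs2 and Rgs1, Birc2 and Birc3, Gbp5 and Gbp7, Icam1 and Icam4, and Clec4d and Clec4e. Others join unrelated genes: Rtp3, a receptor transporter protein, at 7.67 untreated and 11.54 with IFN-γ, lay beside Ccrl2, at 5.53 and 9.35, and both were among the 10 genes at least 8-fold higher. Ch25h lay beside Fas, Edn1 beside Hivep1, and Olr1 beside Tmem52b. Probes of one gene were also compared. In 167 genes with several probes that passed, the probes' log2 differences lay a median of 0.09 and a 90th percentile of 0.26 apart. All were read from the same 2 arrays, so these gaps give no spread between arrays, and in some genes the probes had identical differences. None of those 167 genes had a probe at 2-fold, so the gaps say nothing of how probes of the 190 higher genes would compare.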

How the data were processed

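Gene expression was measured on 4 single-colour arrays of rat astrocyte cultures, 1 array per group, and the 2 control siRNA arrays without GW were compared here. RNA was isolated with Trizol and sense-strand cDNA carried biotin, per the labels' protocols. The deposited table of log2 values was used as the authors left it. The log2 scale was inferred from the values; background correction and normalization were not given in the sources used here.

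Of 29489 probes, 18511 had 1 gene symbol, 575 several and 10403 none, and only the first kind was named; 18394 of them were found in RefSeq for GRCr8. Each of 18166 genes was represented by its brightest probe on average, and the 11790 whose highest value reached the table median of 5.83 were kept. The array medians were 5.79, 5.80, 5.87 and 5.85. A gene was counted at a difference of 2-fold. No test across arrays is possible with 1 array per group, and no detection call was used. The scripts were tested on simulated data.

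The comparison, the 50 gene lists and the 9 marker lists were chosen with earlier results of these data known, and the grouping of cytokines into ligands and receptors was made after the values were seen. The genes named are those with the 40 highest and the 40 lowest differences past 1.5-fold, without provisional, olfactory, vomeronasal, taste receptor and small RNA symbols, the members of each list at 2-fold and up to 6 further members with the greatest size of difference, the cell type markers that passed, a few receptor and Jak genes, and the 12 genes nearest to the threshold on each side; list members that did not pass may be named with their level. Genes named outside this rule are said to be so, and genes given only as neighbours or as holders of a motif follow from those counts.

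Alternatives were quantile normalization and cyclic loess (limma 3.58.1 in R 4.3.3), median centring, other filters, the mean of a gene's probes, low values raised to 5.83, thresholds of 1.5-fold and 3-fold, and the mean of a list for its median. All other steps used Python 3.11.15 with pandas 2.3.3 and numpy 2.4.6.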

Additional observations from a re-analysis of the deposited data

Results flagged for a closer look

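Of the probes without 1 gene symbol, which the comparison above leaves out, 3683 passed the filter, and 26 of them (0.706%) were at least 2-fold higher with IFN-γ while 6 (0.163%) were at least 2-fold lower. Their log2 differences ran from -2.10 to 2.62 around a median of -0.02. They were set apart because a signal of this size lies in probes that carry no gene name here, and the transcripts they measure were not identified.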

How the results depend on the processing

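The counts of 190 higher and 34 lower genes depended on the threshold: at 1.5-fold they were 356 and 187, and at 3-fold 80 and 2. Under quantile normalization they were 186 and 31, under median centring 195 and 34, under cyclic loess 199 and 32, without the filter 201 and 49 of 18166 genes, with a filter on the mean of the 4 arrays 181 and 30, and with low values raised 176 and 31. A filter on the higher of the 2 arrays and the mean of a gene's probes both gave 190 and 34. The share of genes above 0 was 40.1% as deposited, 42.0% after quantile normalization, 43.0% after median centring and 47.8% after cyclic loess. Under these 3 scalings the median turned sign in 4 of the 58 lists (common gamma cytokines, nitric oxide genes, prostaglandin genes and reference genes), and the largest of these 4 medians was 0.022 in size as deposited. The 18 NF-κB genes and the 9 GBP and IRG GTPases lay above 0 under all 3, and 25 to 27 of the 29 cell cycle genes lay below 0. The mean and the median differed in sign in 6 lists: the other CXC and CX3C chemokines (median -0.17, mean 0.16), the chemokine receptors (median -0.14, mean 0.40), and 4 whose median lay within 0.1 of 0, the common gamma cytokines, prostaglandin genes, A1 reactive astrocyte genes and glucose uptake genes. The endothelial marker median of 0.10 was -0.02 with a filter on the mean of the 4 arrays or on the higher of the 2 and -0.01 with low values raised. Of 522 list values over 58 lists, 466 moved by less than 0.1 on the log2 scale and 56 by 0.1 or more, and 16 values in 9 lists changed sign. All 80 genes followed by rank kept their direction under the 3 scalings, with a largest move of 0.08. No paired analysis was possible because each group holds 1 array. Values near the table median limit the size of low folds, and the arrays give no measure of culture-to-culture spread.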

Other observations

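Some gene groups not described in full above also lay close to 0 between the 2 cultures. Of 15 complement genes 0 reached 2-fold, with a median difference of -0.08. Of 24 oxidative stress and metallothionein genes 0 reached 2-fold, with a median of -0.08, and Hmox1, the heme oxygenase, was lowest at 11.28 untreated and 10.71 with IFN-γ. Among 17 clock genes the median was -0.08 and Nr1d1, the repressor REV-ERBα, was lowest at 10.85 and 10.10. In the list of sterol synthesis genes and liver X receptor targets 19 passed, 0 reached 2-fold and the median was -0.06; Abcg1, a cholesterol exporter, stood at 8.72 and 8.21, and Mylip, a ligase for the LDL receptor, at 7.04 and 6.43. Nr1h2 and Nr1h3, the liver X receptors, stood at 9.79 and 9.82 and at 8.26 and 8.16. Ribosomal protein genes had a median of -0.13, with 21 of 23 below 0, and respiratory chain genes -0.07, with 25 of 28 below 0. Among all genes 59.8% lay below 0. The 11 reference genes had a median of 0.00 with Actb, not part of the rule for named genes, at 12.85 and 12.86.

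Several higher genes in no list were noticed after their values were seen. Msc, a repressor of the bHLH family, stood at 6.21 untreated and 8.37 with IFN-γ, and Nptx1, a neuronal pentraxin, at 6.24 and 8.25. The MYC antagonist gene Mxd1 stood at 7.72 and 9.41, and Ppp1r15a, which restores translation after stress, at 8.21 and 10.38. Noct, a clock-linked phosphatase, stood at 7.73 and 9.25, and Peli1, a ubiquitin ligase of Toll-like receptor signals, at 8.62 and 9.96. All 6 were at least 2-fold higher.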
